A study of Mus musculus with 18 samples.

Results

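Classical cadherins and protocadherins were examined in sensory hair cells (HC), in epithelial non-hair cells (ENHC) and in non-epithelial cells (NEC) of the newborn mouse inner ear. The set holds every gene whose probe symbol is Cdh followed by a number or starts with Pcdh, apart from Cdh1, Cdh23 and Pcdh15. Of 85 such genes annotated on the array, among 19057 genes with a symbol of their own, 48 were measured, among 12002 genes measured in all. A gene counted as measured when a probe was detected at a p-value under 0.01 on 2 or more of the 18 arrays, and it was then read by the detected probe with the highest mean signal. Of the 37 genes left out, 29 were detected on 0 arrays and 8 on 1 array (Cdh16, Cdh24, Pcdhb18, Pcdhb19, Pcdhga5, Pcdhga7, Pcdhgb6 and Pcdhgb7). Cdh9 and Pcdhga10 entered with 2 arrays, and Pcdh19 and Pcdhb11 with 3. A gene detected in 1 group or cell type alone entered through it, so filter and test share those values. These were Pcdh8 and Cdh15 (HC), Cdh5, Cdh6 and Pcdh12 (NEC), Cdh9 (vestibular ENHC) and Pcdh19 (cochlear NEC).

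All cells came from postnatal day 1 mice of the Atoh1/nGFP line, a C57BL/6 strain in which Atoh1 regulatory sequences drive a nuclear green fluorescent protein (GFP). The HC gate took cells carrying both GFP and CD326, a surface protein of epithelia; the ENHC gate took CD326-positive cells without GFP, and the NEC gate cells lacking both. Each cell type was obtained separately for cochlea and vestibular system, giving 6 groups of 3 arrays, and each array carried RNA pooled from the inner ears of several mice. The p-values therefore measure the spread between pools, not between single mice.

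Cadherins are calcium-dependent adhesion molecules that join neighbouring cells through their extracellular repeats. Classical cadherins, divided into types I and II, bind beta-catenin and p120-catenin at their cytoplasmic tail and so link the adherens junction to actin. Protocadherins lack these catenin sites. They comprise solitary genes, many of them in the delta-1 and delta-2 subgroups, and 3 gene clusters (Pcdha, Pcdhb and Pcdhg), whose combined isoforms give neurons surface identities. In the inner ear, cadherin junctions between hair cells and supporting cells hold the sensory mosaic together. Cadherins Cdh23 and Pcdh15 of the stereocilia tip link are set apart from the genes described here.

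Array medians of the raw signal ranged from 89.2 to 121.8, and between 22 and 38 of the 48 genes were detected on an array. All 8 hair cell markers, among them Atoh1, Pou4f3, Myo7a and Otof, were detected in HC of both organs, and 6 of the 8 were detected on no array of each other group. Myo6 was detected on 3 of 3 arrays of every ENHC and NEC group (means 10.59 to 11.32). Pvalb was detected on 3 of 3 cochlear NEC arrays (mean 8.89). Endothelial markers, summed over 8 genes on the linear scale, ranged from 2819 to 4593 in NEC, against 191 to 309 in HC and 210 to 335 in ENHC, and 7 of 8 were undetected in each HC group. Markers of Schwann cells and glia, summed over 6 genes, ranged from 3396 to 4701 in NEC, 670 to 1761 in HC and 1521 to 2006 in ENHC. Of these 6 glial markers, Erbb3 and Sox10 were higher in ENHC than in NEC, and the other 4 were lower. Sox10 averaged 9.23 and 9.46 in cochlear and vestibular ENHC, against 7.06 and 7.04 in NEC. The NEC thus held RNA of vessels and, by those other 4 markers, of glia, which the gate does not remove. Levels are given as the log2 value of the background-corrected, quantile-normalized signal, and the value that separated detected from undetected probes lay between 5.10 and 5.52 by array. In these sorted bulk samples, fewer cells of a type and less RNA per cell cannot be told apart.

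Of the 48 genes, 39 differed among the 6 groups (moderated F test, adjusted p under 0.05), where 62.9% of all genes did. In HC compared with ENHC over both organs, 8 genes were higher and 25 lower, or 68.8% of 48, where 47.4% of all genes tested differed (22.3% higher and 25.1% lower). The median log2 difference was -0.46 over the 48 genes and -0.03 over all genes. In ENHC compared with NEC, 11 genes were higher and 12 lower, where 32.6% of all genes differed (16.2% higher and 16.4% lower), and the median difference over the 48 was -0.00092. In HC compared with NEC, 9 genes were higher and 21 lower, where 57.7% of all genes differed (28.4% higher and 29.3% lower), with a median of -0.39 against 0.00 over all genes. Within the organs, HC against ENHC gave 4 genes higher and 21 lower in the cochlea, where 36.6% of all genes differed (17.1% and 19.6%), and 9 higher and 12 lower in the vestibular system, where 35% did (17.1% and 17.9%). With arrays scaled to a common median, the vestibular counts were 9 higher and 8 lower. ENHC against NEC gave 5 higher and 11 lower in the cochlea (23.9% of all genes, 11.8% higher and 12.1% lower) and 13 higher and 12 lower in the vestibular system (23.9% of all genes, 11.5% higher and 12.4% lower). HC against NEC gave 9 higher and 22 lower in the cochlea (47.8% of all genes, 23% higher and 24.7% lower) and 8 higher and 17 lower in the vestibular system (44.5% of all genes, 21.9% higher and 22.6% lower), the last being 8 and 11 with median scaling. With the replicate number as a block within organ, Pcdh18, Pcdhb13, Pcdhb22 and Pcdhb7 also passed in HC against ENHC in the vestibular system (adjusted p = 0.0210, 0.0196, 0.0223 and 0.0477), and Pcdh19 and Pcdhb22 in ENHC against NEC in the cochlea (adjusted p = 0.0324 and 0.0280). The HC minus ENHC difference itself differed between the organs for 12 genes, 2 higher and 10 lower in the cochlea, where 10.9% of all genes did (4.56% and 6.33%). The ENHC minus NEC difference did for 9 genes, 3 higher and 6 lower, where 8.02% of all genes did (3.9% and 4.12%).

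The arrays of the compared groups did not overlap for 13 of 48 genes in HC against ENHC (20.6% of all genes), for 12 in ENHC against NEC (16.4%) and for 17 in HC against NEC (31.5%). Between the organs they did not overlap for 20 genes in HC (25.6% of all genes), 19 in ENHC (26.4%) and 22 in NEC (25.9%).

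**Figure D1:**
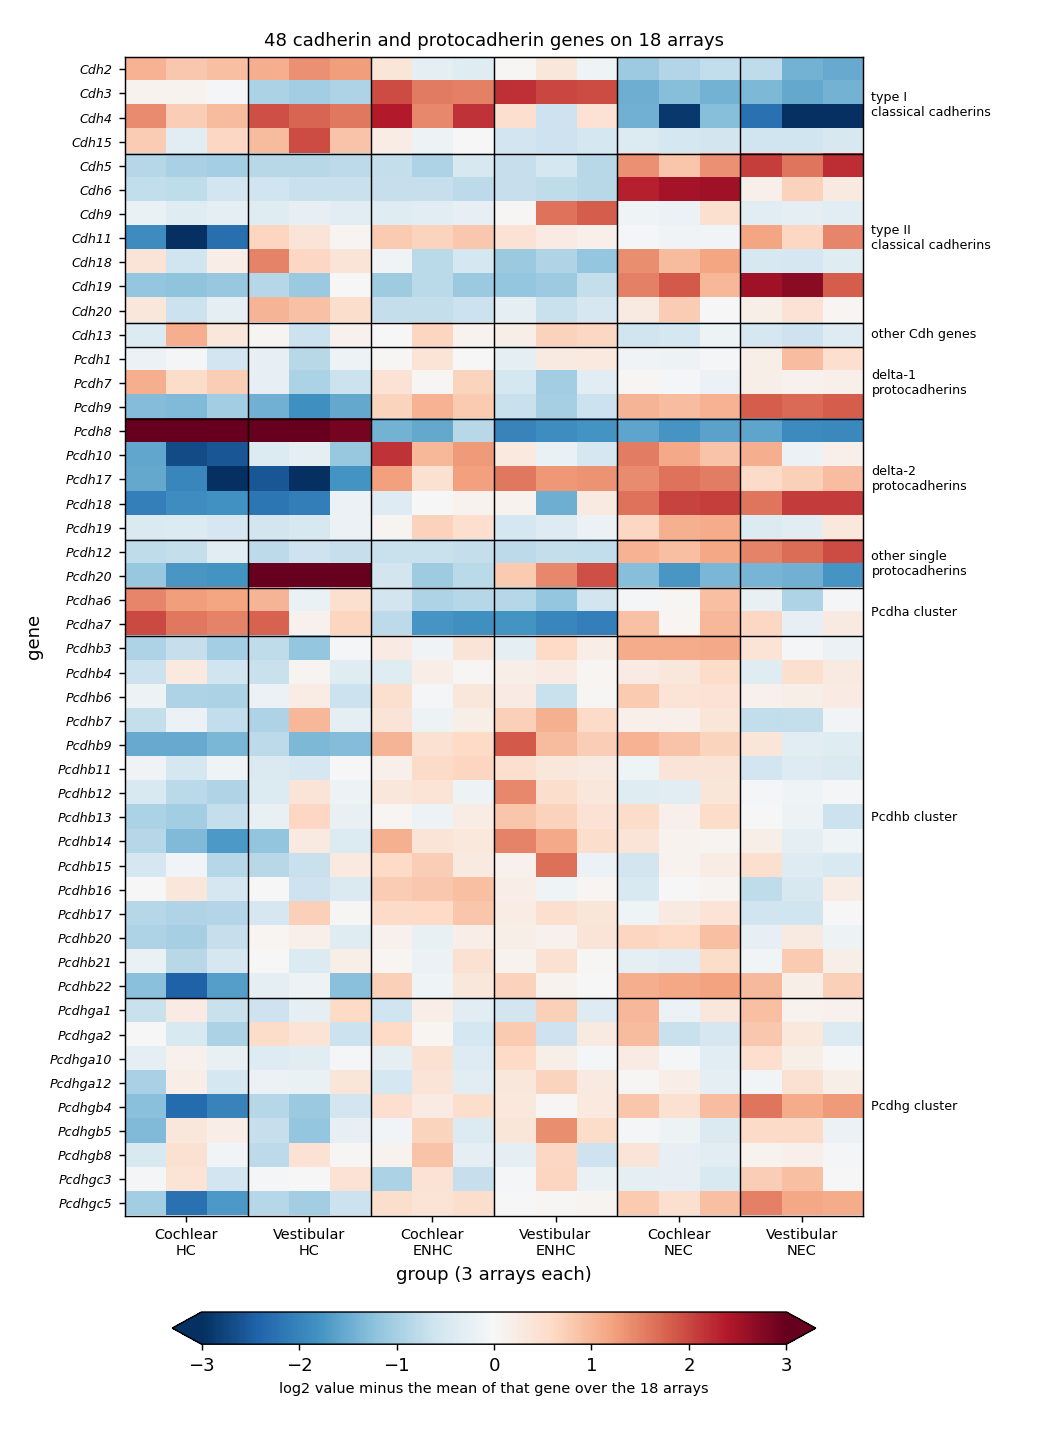
Log2 value of each of the 48 measured genes (rows, by class) on each of the 18 arrays (columns, 3 per group), minus the mean of that gene over all arrays. Red marks arrays above and blue arrays below the mean of the gene; Pcdh8 stands out in HC of both organs, Pcdh20 in vestibular HC, and most Pcdhb genes are below their mean in cochlear HC.

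The 4 type I classical cadherins were Cdh2 (N-cadherin), Cdh3 (P-cadherin), Cdh4 (R-cadherin) and Cdh15 (M-cadherin, first known from muscle). Cdh2 was highest in HC, and Cdh3 was highest in ENHC. Cdh4 was higher in HC and in ENHC than in NEC. Cdh2 stood at 7.08, 6.85 and 6.94 in cochlear HC and 7.12, 7.41 and 7.29 in vestibular HC. It stood at 6.40, 5.75 and 5.67 in cochlear ENHC and 6.07, 6.37 and 5.91 in vestibular ENHC, and at 4.96, 5.17 and 5.30 in cochlear NEC and 5.27, 4.63 and 4.53 in vestibular NEC. The 3 cell types did not overlap for Cdh2. The difference was 1.09 ± 0.16 (SE) in HC against ENHC (adjusted p = 1.40e-05), 1.05 ± 0.16 in ENHC against NEC (adjusted p = 2.95e-05) and 2.14 ± 0.16 in HC against NEC (adjusted p = 1.24e-09). No organ difference of Cdh2 passed the test in any cell type, with values of -0.32 ± 0.22 in HC, -0.17 ± 0.22 in ENHC and 0.33 ± 0.22 in NEC.

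Cdh3 read 6.00, 6.00 and 5.86 in cochlear HC and 4.96, 4.85 and 4.98 in vestibular HC, where it was detected on 3 and 0 arrays. In ENHC it read 7.85, 7.45 and 7.42 in the cochlea and 8.10, 7.89 and 7.85 in the vestibular system. In NEC its values were 4.44 to 4.63 in the cochlea and 4.36 to 4.56 in the vestibular system, with detection on 0 of 6 arrays. All 6 ENHC arrays lay above all HC arrays, and cochlear HC above vestibular HC. Cdh3 fell by 2.32 ± 0.11 on the log2 scale in HC relative to ENHC (adjusted p = 6.00e-12). A gene undetected on every array of a side has no measurable ratio there, and only the least possible fold is given, against the detection limit of those arrays. The adjusted p beside such a fold tests the fitted difference, not the bound. ENHC held at least 5.43-fold more Cdh3 than NEC (adjusted p = 6.02e-14). Cochlear HC held at least 1.59-fold more than vestibular HC (adjusted p = 0.000145) by this probe. The other 2 Cdh3 probes gave 0.27 and 0.44 (adjusted p = 0.540 and 0.110, over all kept probes). ENHC differed by -0.37 ± 0.16 between the organs (adjusted p = 0.168), and by -0.61 and -0.85 with the other probes (adjusted p = 0.107 and 0.00232).

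Cdh4 read 10.05, 9.37 and 9.57 in cochlear HC and 10.56, 10.38 and 10.20 in vestibular HC. It read 11, 10.08 and 10.79 in cochlear ENHC and 9.12, 8.0 and 9.06 in vestibular ENHC, and in NEC 7.18, 5.74 and 7.34 in the cochlea and 6.40, 4.81 and 5.65 in the vestibular system. Every HC and every ENHC array was above every NEC array. Cdh4 was higher by 3.83 ± 0.30 in HC (adjusted p = 2.84e-09) and by 3.49 ± 0.30 in ENHC (adjusted p = 2.33e-08), each against NEC. HC and ENHC compared differently in the 2 organs. The HC minus ENHC value of Cdh4 was -0.96 ± 0.43 in the cochlea (adjusted p = 0.0908, or 0.0114 with the replicate number as a block), against 1.66 ± 0.43 in the vestibular system (adjusted p = 0.00506). These differed by -2.61 ± 0.60 (adjusted p = 0.00692). The other Cdh4 probe, detected on 12 arrays, gave -0.90 and 2.07 (adjusted p = 0.00414 and 7.55e-07, over all kept probes). Over both organs HC against ENHC was 0.59 with that probe (adjusted p = 0.00570) and 0.35 with the probe used (0.377). Between the organs in HC the values were -1.07 (0.00303) and -0.72 (0.348), so these calls depend on the probe. Cdh15 was detected on 5 of 6 HC arrays (5.69, 4.58 and 5.55 in cochlear HC; 5.86, 6.88 and 5.77 in vestibular HC) and on 0 of 12 ENHC and NEC arrays, whose values ran from 4.30 to 5.14. It was at least 1.23-fold higher in HC than in ENHC over both organs (adjusted p = 0.000165). Cdh15 passed the detection filter only through HC arrays, so this test is not independent of the filter. In the cochlea the HC and ENHC arrays of Cdh15 overlapped and the difference did not pass. The HC minus ENHC value differed between cochlea and vestibular system by -1.5 ± 0.39 (adjusted p = 0.0165), fitted with ENHC undetected.

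**Figure D2:**
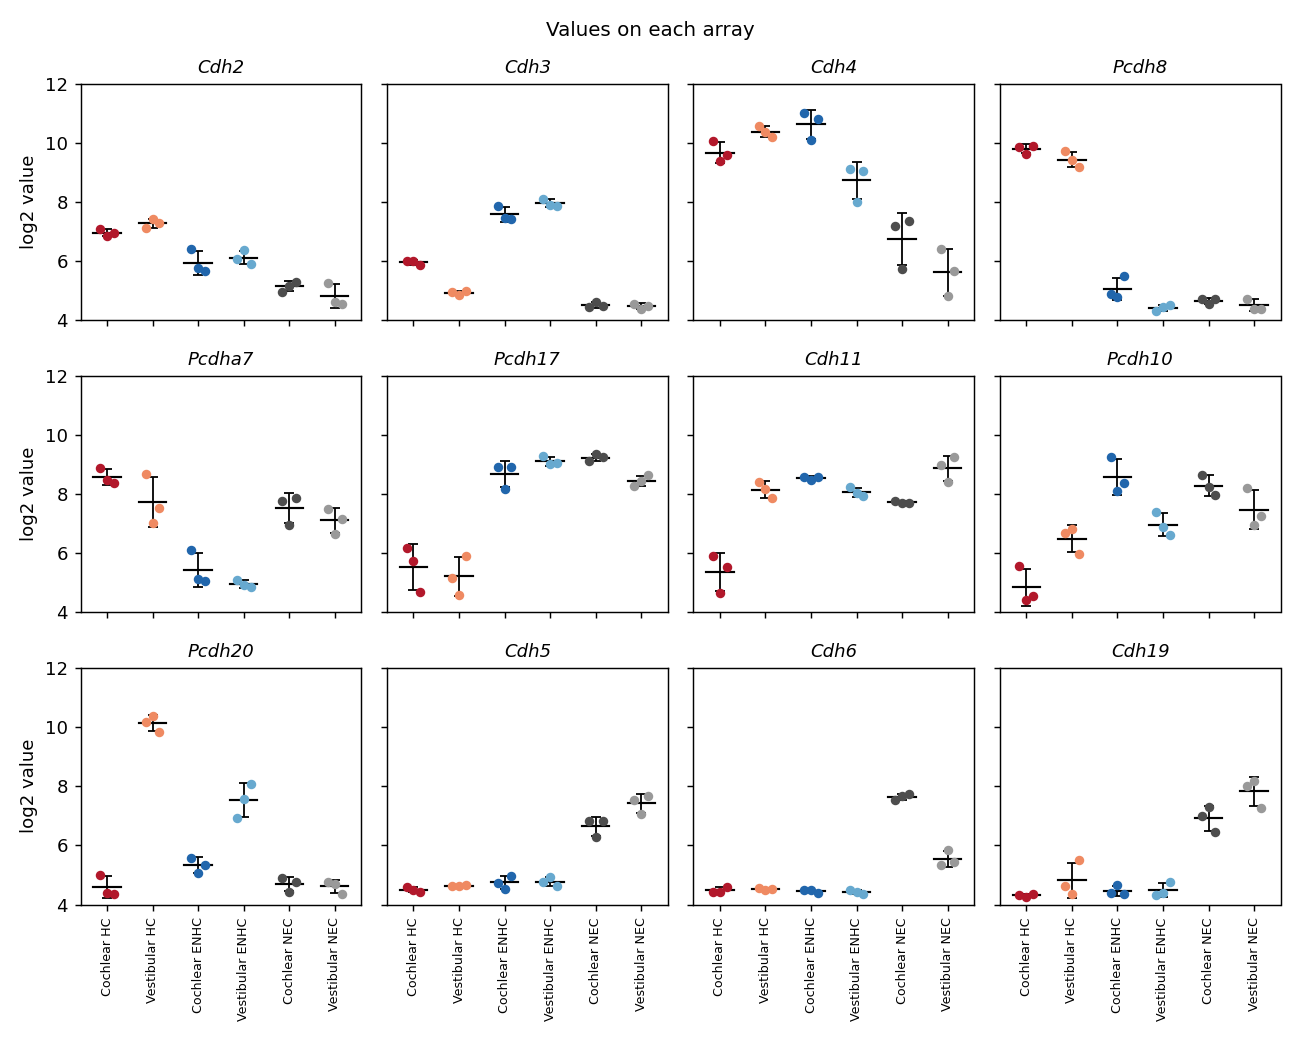
Log2 value (vertical axis) of 12 genes on each array (points), in the 6 groups along the horizontal axis, with the mean (line) and SD of 3 arrays (bars). Cdh2 steps down by cell type, Cdh3 peaks in ENHC, Pcdh8 is high in HC of both organs only, Pcdh20 is high in vestibular HC, and Cdh5, Cdh6 and Cdh19 are high in NEC.

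Among the 7 type II classical cadherins, 5 were lower in ENHC than in NEC and 0 higher, where 16.4% of all genes were lower and 16.2% higher. Cdh5, the VE-cadherin of endothelial junctions, was detected on all 6 NEC arrays and on 0 of 12 others. It read 6.83, 6.28 and 6.81 in cochlear NEC and 7.53, 7.06 and 7.67 in vestibular NEC, against 4.42 to 4.98 in HC and ENHC. NEC held at least 3.05-fold more than ENHC (adjusted p = 1.72e-10) and at least 3.40-fold more than HC (adjusted p = 2.38e-11). Cdh5 passed the detection filter only through NEC arrays, so these tests are not independent of the filter. Of the 8 endothelial markers, 7 were undetected on every array of each HC group and of cochlear ENHC, and 5 of vestibular ENHC. Egfl7 in cochlear HC (mean 6.68) and Kdr in vestibular ENHC (mean 6.51) were detected on 3 of 3 arrays. Cdh19, a cadherin of the Schwann cell lineage, read 6.98, 7.31 and 6.46 in cochlear NEC and 8.01, 8.19 and 7.28 in vestibular NEC. It was detected on 0 ENHC arrays and on 1 HC array, the third vestibular one at 5.49, where the other HC values were 4.27 to 4.62. NEC held at least 3.86-fold more than ENHC (adjusted p = 1.10e-09), and Cdh19 fell by 2.81 ± 0.20 in HC relative to NEC (adjusted p = 8.00e-10). That same HC array had a glial marker sum of 1761, against 670 and 786 in the other vestibular HC arrays, and the part of this in the Cdh19 value was not tested.

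Cdh6, a type II cadherin also known from kidney, read 7.52, 7.67 and 7.73 in cochlear NEC and 5.34, 5.86 and 5.44 in vestibular NEC, with no overlap between the organs, and it was detected on 5 of 6 NEC arrays and on no HC or ENHC array. Cochlear NEC exceeded vestibular NEC by 2.09 ± 0.16 (adjusted p = 9.60e-08). Cdh18 showed the same direction in NEC, with 7.40, 6.94 and 7.18 in the cochlea and 5.52, 5.50 and 5.63 in the vestibular system, a difference of 1.63 ± 0.28 (adjusted p = 0.000941). In HC its values were 6.40, 5.40 and 6.19 in the cochlea and 7.49, 6.63 and 6.40 in the vestibular system, against 5.89, 5.19 and 5.47 in cochlear ENHC and 4.88, 5.09 and 4.83 in vestibular ENHC. Cdh18 was higher in HC than in ENHC by 1.19 ± 0.20 over both organs (adjusted p = 5.67e-05). In the cochlea its HC and ENHC arrays overlapped, and 0 type II cadherins passed as higher in HC. The HC minus ENHC value of Cdh18 differed between cochlea and vestibular system by -1.43 ± 0.40 (adjusted p = 0.0239). Summed neuronal markers (7 genes) were 1261 to 2207 in cochlear NEC and 637 to 678 in vestibular NEC, and their part in the Cdh6 and Cdh18 values was not tested.

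Cdh11, known from mesenchyme and osteoblasts, separated the hair cells of the organs. It read 5.91, 4.66 and 5.52 in cochlear HC and 8.42, 8.17 and 7.86 in vestibular HC. Cochlear ENHC read 8.58, 8.46 and 8.59, vestibular ENHC 8.23, 8.04 and 7.93, cochlear NEC 7.76, 7.69 and 7.70, and vestibular NEC 8.97, 8.40 and 9.24. By this probe cochlear HC lay below the other 5 groups. Cdh11 fell by 2.79 ± 0.27 in cochlear HC relative to vestibular HC (adjusted p = 4.99e-07), and the HC minus ENHC value differed between cochlea and vestibular system by -3.26 ± 0.38 (adjusted p = 9.91e-06). Its other 2 probes gave -1.72 and -1.47 between the organs in HC (adjusted p = 0.0500034 and 0.0578, over all kept probes), neither past the threshold. Among 8 mesenchyme markers, Col1a2 and Col3a1 averaged 4.79 and 4.48 in cochlear HC, with 0 of 3 arrays detected, against 7.65 and 6.33 in vestibular HC, with 3 of 3. Lum and Pdgfra ran the other way, at 7.36 and 9.58 in cochlear HC, against 4.60 and 7.99 in vestibular HC. The summed level of the 8 was 1020 to 1107 in cochlear HC and 633 to 712 in vestibular HC, with 6 and 4 of them undetected on every array, and their part in the Cdh11 value was not tested.

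Cdh20, expressed in neural crest, was detected on 4 HC arrays (5.39, 4.40 and 4.74 in the cochlea; 6.05, 5.93 and 5.57 in the vestibular system), on 0 ENHC arrays and on 2 NEC arrays. It passed the test in HC against ENHC (adjusted p = 0.000263), but no fold is given, since its HC mean was not above the detection limit of the ENHC arrays. Cdh9 was detected on 2 arrays only, both vestibular ENHC (6.30 and 6.48, with 4.71 on the other array of that group), and its values elsewhere were 4.30 to 5.14. It was at least 1.27-fold higher in vestibular than in cochlear ENHC (adjusted p = 0.00347). Since Cdh9 passed the detection filter only through vestibular ENHC arrays, this test is not independent of the filter. Cdh13 (T-cadherin), which is anchored by lipid and has no cytoplasmic tail, was detected on 4 of 6 HC, 4 of 6 ENHC and 0 of 6 NEC arrays. It was at least 1.23-fold higher in ENHC than in NEC (adjusted p = 0.00541), while its adjusted p of 0.0339 in HC against NEC went up to between 0.0535 and 0.109 without any 1 of 8 arrays (each of the NEC arrays in replicates 1 and 2, cochlear HC replicates 2 and 3, and vestibular HC replicates 1 and 3).

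The 5 delta-2 protocadherins split in HC: Pcdh8 was higher than in ENHC, Pcdh10, Pcdh17 and Pcdh18 were lower, and Pcdh19 was undetected in both. Pcdh8 (arcadlin, an activity-regulated synaptic protein in rat neurons) had the largest difference of the 48 genes in the contrasts of HC over both organs. Chromosome 14 carries 4 of the solitary genes, in the order Pcdh8, Pcdh17, Pcdh20 and Pcdh9, with 1, 2 and 0 other protein-coding genes between neighbours (GRCm38.p6). Because these neighbours had different patterns in the sorted cells, their promoters are shown, from 250 bases before to 50 bases after the annotated start (RefSeq, GRCm38.p6, 5′ to 3′ on the strand of the gene), with CpG dinucleotides in capitals. They lie at chr14:79771263-79771562 (minus strand) for Pcdh8, chr14:84443313-84443612 (plus) for Pcdh17, chr14:88471347-88471646 (minus) for Pcdh20 and chr14:93890620-93890919 (minus) for Pcdh9.
Pcdh8: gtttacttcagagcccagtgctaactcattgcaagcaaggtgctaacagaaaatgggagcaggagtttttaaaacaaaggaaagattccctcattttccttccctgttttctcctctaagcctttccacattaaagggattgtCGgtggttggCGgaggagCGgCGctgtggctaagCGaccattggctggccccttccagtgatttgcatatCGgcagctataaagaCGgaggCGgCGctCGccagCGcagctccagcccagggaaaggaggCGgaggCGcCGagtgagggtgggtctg
Pcdh17: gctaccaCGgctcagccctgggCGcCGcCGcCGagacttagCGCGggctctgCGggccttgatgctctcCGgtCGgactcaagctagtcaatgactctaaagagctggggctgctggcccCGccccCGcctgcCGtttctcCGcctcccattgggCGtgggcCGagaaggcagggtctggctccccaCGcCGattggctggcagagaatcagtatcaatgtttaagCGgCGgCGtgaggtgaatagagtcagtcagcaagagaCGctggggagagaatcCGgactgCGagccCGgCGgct
Pcdh20: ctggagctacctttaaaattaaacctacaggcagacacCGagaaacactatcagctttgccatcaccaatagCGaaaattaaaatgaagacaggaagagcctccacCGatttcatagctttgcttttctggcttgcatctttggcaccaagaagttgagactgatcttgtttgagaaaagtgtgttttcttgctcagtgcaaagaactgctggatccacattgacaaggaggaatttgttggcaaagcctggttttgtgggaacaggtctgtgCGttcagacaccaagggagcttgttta
Pcdh9: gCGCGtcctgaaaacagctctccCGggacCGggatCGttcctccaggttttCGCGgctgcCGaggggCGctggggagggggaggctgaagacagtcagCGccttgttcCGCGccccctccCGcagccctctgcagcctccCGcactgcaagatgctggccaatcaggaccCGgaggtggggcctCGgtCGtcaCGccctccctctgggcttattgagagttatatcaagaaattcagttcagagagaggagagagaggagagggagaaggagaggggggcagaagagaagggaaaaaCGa

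The Pcdh20 promoter held 4 CpG, an observed over expected ratio of 0.28. The ratio was 0.64 for Pcdh8 with 14 CpG, 0.82 for Pcdh17 with 26 and 0.66 for Pcdh9 with 19, against a median of 0.38 over 32851 RefSeq promoters. Searched on both strands, CAGCTG (an E-box) occurred in 16.3% of all promoters, and GTTGCC (part of the X-box bound by RFX factors) in 12.5%. Neither was in the windows printed here. Of 13 measured genes with a promoter in the table, chromosome 18 left out, 1 held CAGCTG (Cdh9) and 0 held GTTGCC. No match says only that these letters are absent from the window.

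Pcdh8 read 9.87, 9.62 and 9.89 in cochlear HC and 9.71, 9.40 and 9.19 in vestibular HC. It was detected on 0 of 12 other arrays, with 4.88, 4.78 and 5.48 in cochlear ENHC, 4.31, 4.45 and 4.51 in vestibular ENHC and 4.37 to 4.73 in NEC. All HC arrays stood far above the rest, and the organs overlapped. HC held at least 18.2-fold more Pcdh8 than ENHC (fitted difference 4.88 ± 0.14, adjusted p = 4.46e-15) and at least 19.6-fold more than NEC (adjusted p = 1.36e-15). Since Pcdh8 passed the detection filter only through HC arrays, these tests are not independent of the filter. The organ difference in HC was 0.36 ± 0.20 (adjusted p = 0.291).

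Pcdh17, found at synapses in the forebrain, was the mirror case. It read 6.18, 5.74 and 4.68 in cochlear HC and 5.15, 4.59 and 5.92 in vestibular HC, with detection on 3 of 6 arrays. ENHC read 8.93, 8.17 and 8.93 in the cochlea and 9.29, 9.01 and 9.05 in the vestibular system, and NEC 9.13, 9.34 and 9.24 in the cochlea and 8.28, 8.43 and 8.63 in the vestibular system. HC lay below all other arrays. Pcdh17 fell by 3.52 ± 0.24 relative to ENHC (adjusted p = 6.57e-10) and by 3.46 ± 0.24 relative to NEC (adjusted p = 4.38e-10), while ENHC and NEC differed by 0.06 ± 0.24 (adjusted p = 0.904).

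Pcdh10 was also low in HC, but most of all in the cochlea. Cochlear HC read 5.56, 4.42 and 4.54 and vestibular HC 6.69, 6.81 and 5.98, against 9.27, 8.11 and 8.39 in cochlear ENHC and 7.39, 6.90 and 6.61 in vestibular ENHC. NEC read 8.65, 8.25 and 7.96 in the cochlea and 8.20, 6.94 and 7.26 in the vestibular system. The HC minus ENHC value was -3.75 ± 0.38 in the cochlea (adjusted p = 2.39e-07), against -0.48 ± 0.38 in the vestibular system (adjusted p = 0.37), a difference of -3.28 ± 0.53 (adjusted p = 0.00035). Cochlear HC fell by 1.66 ± 0.38 relative to vestibular HC (adjusted p = 0.00489, or 0.0705 without background correction), and cochlear ENHC exceeded vestibular ENHC by 1.62 ± 0.38 (adjusted p = 0.00694). The ENHC value was 1.27 without cochlear ENHC replicate 1 (adjusted p = 0.0523). The other Pcdh10 probe, detected on 10 arrays, gave -0.16 between the organs in HC (adjusted p = 0.856), 0.98 in ENHC (adjusted p = 0.0701) and -1.14 for the difference between these (adjusted p = 0.158, all over all kept probes), so the organ differences depend on the probe.

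Pcdh18 was lowest in HC and highest in NEC. HC read 5.48, 5.68 and 5.73 in the cochlea and 5.36, 5.47 and 7.37 in the vestibular system, ENHC 7.14, 7.54 and 7.65 and 7.63, 6.06 and 7.81, and NEC 9.16, 9.56 and 9.60 and 9.14, 9.63 and 9.63. NEC lay above all other arrays, and HC and ENHC overlapped because of vestibular HC replicate 3. Pcdh18 fell by 1.46 ± 0.32 in HC relative to ENHC (adjusted p = 0.000815) and by 2.15 ± 0.32 in ENHC relative to NEC (adjusted p = 2.07e-05). The glial marker sum was also highest on that HC array (1761). The mesenchyme marker sum was 633 to 1107 in HC, 1144 to 2077 in ENHC and 8978 to 12778 in NEC, with 5 of its 8 genes lower and 1 higher in HC than in ENHC, and its part in the Pcdh18 values was not tested. Pcdh19, whose human counterpart is an epilepsy gene, was detected on 3 arrays, all cochlear NEC (5.43, 5.87 and 5.92), against 4.39, 4.47 and 5.12 in vestibular NEC. Cochlear NEC held at least 1.34-fold more (adjusted p = 0.00401). Since Pcdh19 passed the detection filter only through cochlear NEC arrays, this test is not independent of the filter. In HC and ENHC it was undetected on every array, so no fold between these is given, and its adjusted p of 0.0218 in HC against ENHC became 0.0605 without cochlear ENHC replicate 2 and 0.0554 without vestibular ENHC replicate 3.

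Of the 3 delta-1 protocadherins, Pcdh9 was lowest in HC. It was detected on 0 of 6 HC arrays, which read 4.93, 4.90 and 5.18 in the cochlea and 4.79, 4.38 and 4.69 in the vestibular system. ENHC read 6.89, 7.26 and 7.02 in the cochlea and 5.56, 5.22 and 5.57 in the vestibular system, and NEC 7.25, 7.14 and 7.27 and 8.04, 7.93 and 8.04. The order of the organs was turned between ENHC and NEC, without overlap in either. Cochlear ENHC exceeded vestibular ENHC by 1.60 ± 0.17 (adjusted p = 2.38e-06), while Pcdh9 fell by 0.79 ± 0.17 in cochlear NEC relative to vestibular NEC (adjusted p = 0.00719, or 0.117 with arrays scaled to a common median), and the ENHC minus NEC value differed between cochlea and vestibular system by 2.39 ± 0.24 (adjusted p = 2.76e-06). With its other 2 probes, the organ difference was 1.05 and 0.12 in ENHC (adjusted p = 0.0673 and 0.835, over all kept probes) and -0.87 and -0.79 in NEC (adjusted p = 0.201 and 0.0212), and the ENHC minus NEC value differed by 1.92 and 0.90 (adjusted p = 0.0196 and 0.0611). NEC held at least 5.08-fold more than HC (adjusted p = 4.58e-13). Pcdh7 (NF-protocadherin) was detected on all 18 arrays and differed between the organs in HC and ENHC, with 8.39, 7.86 and 8.04 in cochlear HC, against 7.07, 6.35 and 6.65 in vestibular HC. In ENHC it read 7.73, 7.33 and 7.97 in the cochlea and 6.78, 6.27 and 6.96 in the vestibular system. The cochlea was higher by 1.41 ± 0.23 in HC (adjusted p = 0.000206) and by 1.01 ± 0.23 in ENHC (adjusted p = 0.00543), while the NEC difference was -0.22 ± 0.23 (adjusted p = 0.735), where values ran from 7.12 to 7.33 in the cochlea and 7.44 to 7.48 in the vestibular system. Its 4 probes ran from -0.77 to 0.87 in vestibular HC against vestibular NEC, with calls in both directions. Over both organs, HC against ENHC was 0.22 with the probe used (adjusted p = 0.293, over all kept probes). The others gave 0.66, 0.26 and 0.97 (adjusted p = 0.0284, 0.331 and 0.00230). HC against NEC was 0.05 with the probe used (0.825) and 0.38, 0.17 and 1.62 with the others (0.190, 0.509 and 9.29e-06). These Pcdh7 contrasts depend on the probe. Pcdh1 ranged from 5.17 to 5.96 in HC, 5.73 to 6.41 in ENHC and 5.85 to 6.93 in NEC. Its difference of -0.46 ± 0.17 in HC against ENHC (adjusted p = 0.0298) had an adjusted p of 0.0675 to 0.0866 without any 1 of 5 arrays (cochlear HC replicate 3, vestibular HC replicate 2, cochlear ENHC replicate 2, and vestibular ENHC replicates 2 and 3), and of 0.113 with arrays scaled to a common median. The other Pcdh1 probe gave -0.12 (adjusted p = 0.599).

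Pcdh20 had the largest organ difference of the 48 genes. It read 5.01, 4.39 and 4.35 in cochlear HC, where 0 arrays detected it, and 10.17, 10.38 and 9.84 in vestibular HC. ENHC read 5.59, 5.08 and 5.34 in the cochlea (1 array detected) and 6.93, 7.58 and 8.09 in the vestibular system, and NEC read 4.37 to 4.88 with no array detected. In the vestibular system the order was HC, then ENHC, then NEC, with no overlap, and all cochlear arrays lay below the vestibular HC and ENHC arrays. Vestibular HC held at least 29.3-fold more than cochlear HC (adjusted p = 1.05e-10), and Pcdh20 fell by 2.20 ± 0.27 in cochlear ENHC relative to vestibular ENHC (adjusted p = 1.09e-05). Within the vestibular system HC exceeded ENHC by 2.60 ± 0.27 (adjusted p = 3.38e-07) and NEC at least 28.1-fold (adjusted p = 5.22e-12). Pcdh12, an endothelial protocadherin, was detected on the 6 NEC arrays alone, with 6.11, 5.95 and 6.21 in the cochlea and 6.54, 6.72 and 7.01 in the vestibular system. NEC held at least 2.23-fold more than HC (adjusted p = 3.70e-11). Pcdh12 passed the detection filter only through NEC arrays, so this test is not independent of the filter. It shared with Cdh5 a lower level in cochlear than in vestibular NEC, by -0.67 ± 0.17 (adjusted p = 0.0192) and -0.78 ± 0.20 (adjusted p = 0.0215). The endothelial marker sum was 2819 to 3390 in cochlear NEC and 3809 to 4593 in vestibular NEC, and its part in these values was not tested. Without cochlear NEC replicate 2, or without vestibular NEC replicate 3, both adjusted p-values lay between 0.0999 and 0.147, without vestibular NEC replicate 1 that of Cdh5 was 0.0840, and without vestibular NEC replicate 2 that of Pcdh12 was 0.05.

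In HC against ENHC, the clustered protocadherins gave the following counts by cluster. Both measured Pcdha genes were higher, 13 of 15 Pcdhb genes were lower and 0 higher, and 3 of 9 Pcdhg genes were lower and 0 higher, where 22.3% of all genes were higher and 25.1% lower. The isoforms of Pcdha, and likewise those of Pcdhg, share constant exons, so a probe in these may read several isoforms and the gene names of the 2 clusters are uncertain. Pcdha7 read 8.88, 8.48 and 8.39 in cochlear HC and 8.67, 7.02 and 7.54 in vestibular HC. It read 6.11, 5.13 and 5.06 in cochlear ENHC and 5.11, 4.93 and 4.84 in vestibular ENHC, and in NEC 7.76, 6.94 and 7.88 in the cochlea and 7.51, 6.65 and 7.16 in the vestibular system. ENHC was the low cell type, with 1 of 6 arrays detected and no overlap with either other. Pcdha7 was higher by 2.97 ± 0.26 in HC than in ENHC (adjusted p = 2.39e-08), and fell by 2.12 ± 0.26 in ENHC relative to NEC (adjusted p = 2.55e-06). Its other 2 probes, detected on 12 and 2 arrays, gave 2.56 and 0.49 in HC against ENHC (adjusted p = 4.97e-09 and 0.0491, over all kept probes). In ENHC against NEC they gave -1.69 and -0.15 (adjusted p = 1.88e-06 and 0.636). Pcdha6 read 7.06, 6.84 and 6.77 in cochlear HC and 6.62, 5.40 and 6.08 in vestibular HC, against 4.44 to 5.05 in ENHC and 4.66 to 6.49 in NEC, and HC held at least 2.05-fold more than ENHC (adjusted p = 3.43e-06). With the other Pcdha6 probe HC against ENHC was 0.79 (adjusted p = 0.000269, over all kept probes). ENHC against NEC was -0.76 with the probe used and 0.002 with the other (adjusted p = 0.995), so that call depends on the probe.

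The median difference of the 15 Pcdhb genes was -0.77 in HC against ENHC, and their fitted differences ran from -2.24 to -0.37. By organ, 11 were lower in the cochlea (19.6% of all genes) and 5 in the vestibular system (17.9%), with 0 higher in either. Pcdhb genes are single-exon genes without shared constant exons. Whether a Pcdhb probe also reads other Pcdhb genes was not tested. Pcdhb9 was detected on 0 of 6 HC arrays (4.34, 4.34 and 4.48 in the cochlea; 5.07, 4.51 and 4.55 in the vestibular system). It read 6.87, 6.31 and 6.44 in cochlear ENHC and 7.70, 6.81 and 6.59 in vestibular ENHC, and in NEC 6.89, 6.72 and 6.53 in the cochlea and 6.21, 5.52 and 5.48 in the vestibular system. HC lay below all other arrays, and ENHC held at least 2.86-fold more (adjusted p = 1.50e-08). Pcdhb14 read 6.06, 5.61 and 5.19 in cochlear HC and 5.75, 7.19 and 6.51 in vestibular HC, against 7.98, 7.30 and 7.25 in cochlear ENHC and 8.40, 8.05 and 7.45 in vestibular ENHC, and fell by 1.69 ± 0.23 in HC (adjusted p = 6.69e-06). Pcdhb22 read 6.89, 5.73 and 6.51 in cochlear HC and 7.85, 8.0 and 6.89 in vestibular HC, against 8.87, 8.03 and 8.48 in cochlear ENHC and 8.85, 8.25 and 8.14 in vestibular ENHC, and fell by 1.46 ± 0.23 (adjusted p = 3.87e-05). In both genes HC and ENHC did not overlap.

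Pcdhb3, Pcdhb6, Pcdhb7, Pcdhb11, Pcdhb12, Pcdhb13, Pcdhb15, Pcdhb16, Pcdhb17 and Pcdhb20 were lower in HC by -0.97 to -0.51, of which Pcdhb11, undetected in HC, has a bound of at least 1.04-fold. Pcdhb4 (-0.37 ± 0.19, adjusted p = 0.118) and Pcdhb21 (-0.45 ± 0.20, adjusted p = 0.0698) did not pass, with adjusted p-values of 0.0495 and 0.0434 with the replicate number as a block. The value of Pcdhb6 (-0.51 ± 0.19, adjusted p = 0.0367) had an adjusted p of 0.0530 to 0.103 without any 1 of 8 arrays, namely replicates 2 and 3 of cochlear HC, 1 and 3 of vestibular HC, 1 and 3 of cochlear ENHC, and 1 and 3 of vestibular ENHC. With arrays scaled to a common median in place of quantile normalization, Pcdhb20 had an adjusted p of 0.0799. With that scaling Pcdhb14 had an adjusted p of 0.0589 in ENHC against NEC. ENHC against NEC gave 1 Pcdhb gene higher and 2 lower in the cochlea (median -0.08), where 11.8% and 12.1% of all genes were. In the vestibular system it gave 7 higher and 0 lower (median 0.66), where 11.5% and 12.4% of all genes were. Over both organs, 6 of 15 Pcdhb genes were higher in ENHC than in NEC (Pcdhb9, Pcdhb11, Pcdhb12, Pcdhb14, Pcdhb16 and Pcdhb17, by 0.54 to 0.76), where 16.2% of all genes were higher. Of these, Pcdhb12 and Pcdhb9 each had an adjusted p above the threshold without any 1 of 6 arrays, 0.0555 to 0.0860 for Pcdhb12 and 0.0532 to 0.0898 for Pcdhb9. For both, vestibular ENHC replicate 1 gave the highest of these values, and replicate 1 of cochlear ENHC and replicates 2 of cochlear and vestibular NEC were among the 6; the others were cochlear ENHC replicate 2 and cochlear NEC replicate 1 for Pcdhb12, and cochlear NEC replicate 3 and vestibular NEC replicate 3 for Pcdhb9. With the replicate number as a block, Pcdhb7 and Pcdhb22 also passed in ENHC against NEC (adjusted p = 0.0495 and 0.0212), as did Cdh9 (0.0453) and Pcdh19 (0.0241). HC against NEC gave 9 Pcdhb genes lower in the cochlea (24.7% of all genes) and 3 in the vestibular system (22.6%). Over both organs, 8 of 15 were lower in HC than in NEC and 0 higher, where 29.3% of all genes were lower. Among them was Pcdhb3 at 4.92, 5.16 and 4.83 in cochlear HC and 5.09, 4.69 and 5.82 in vestibular HC, against 6.95, 6.95 and 6.99 in cochlear NEC and 6.25, 5.80 and 5.68 in vestibular NEC.

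Within the Pcdhg cluster, Pcdhgb4 and Pcdhgc5 had nearly the same profile. Pcdhgb4 ranged from 5.44 to 7.18 in HC, 7.78 to 8.28 in ENHC and 8.21 to 9.36 in NEC, and Pcdhgc5 from 5.32 to 6.90, 7.57 to 8.08 and 8.04 to 9.07. They fell by 1.67 ± 0.17 and 1.53 ± 0.17 in HC relative to ENHC (adjusted p = 1.74e-07 and 3.50e-07) and by 0.72 ± 0.17 and 0.73 ± 0.17 in ENHC relative to NEC (adjusted p = 0.0027 and 0.00182). Whether both probes read shared exons was not tested. Pcdhgb5 fell by 0.90 ± 0.28 in HC relative to ENHC (adjusted p = 0.0134). The remaining 6, Pcdhga1, Pcdhga2, Pcdhga10, Pcdhga12, Pcdhgb8 and Pcdhgc3, passed the test in none of the 3 contrasts over both organs by the probes used. A second Pcdhgc3 probe, detected on 2 arrays, gave -0.50 in ENHC and -0.69 in HC, each against NEC (adjusted p = 0.0403 and 0.00307, over all kept probes). Pcdhgc3 and Pcdhga12 were detected on all 18 arrays, with values from 8.28 to 10.14 and from 8.26 to 9.90, and HC against ENHC gave 0.16 ± 0.24 for Pcdhgc3 (adjusted p = 0.623).

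**Figure D3:**
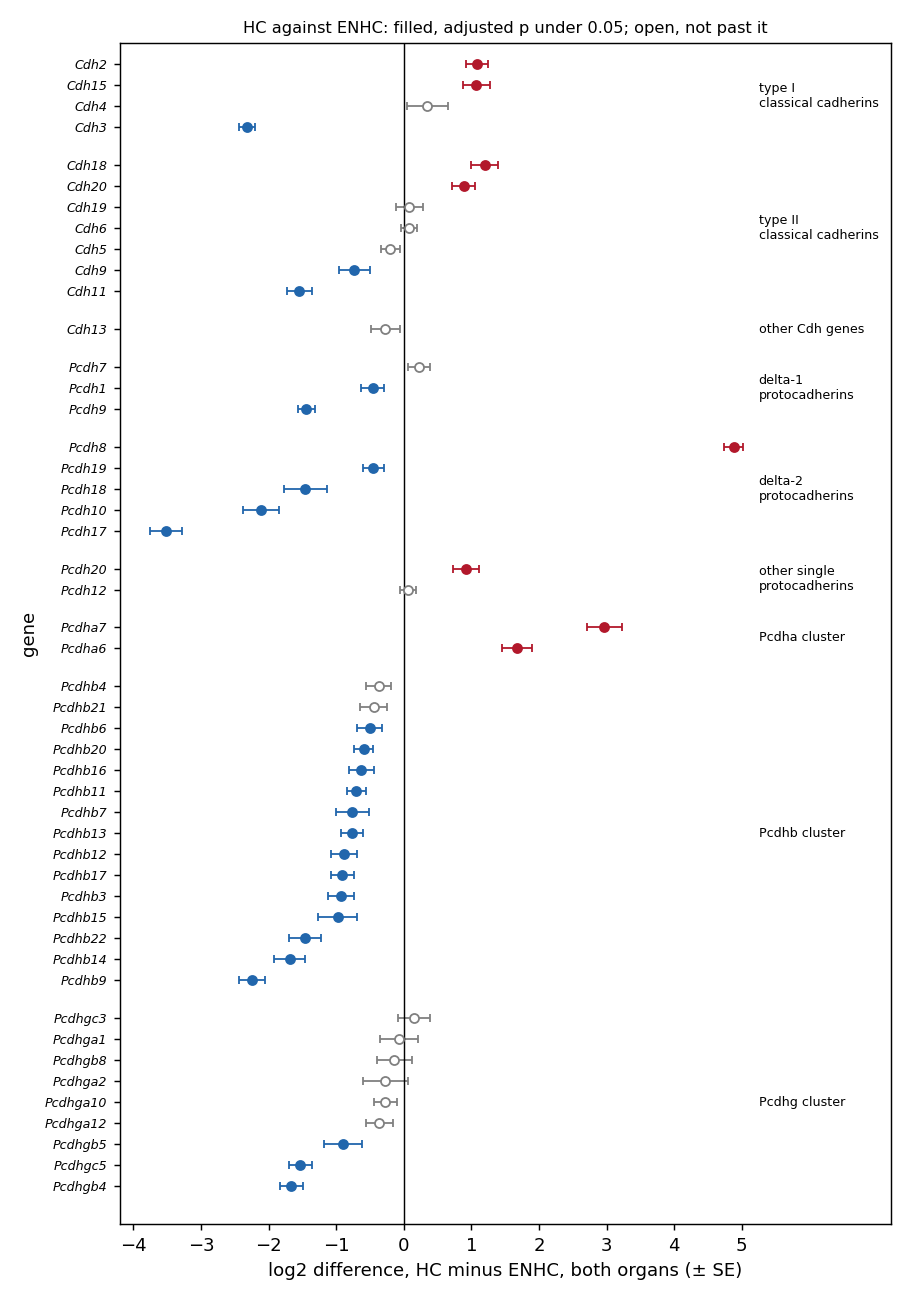
Log2 difference in HC against ENHC over both organs (horizontal axis, ± SE of the model, n = 6 arrays per side) for the 48 genes, grouped by class down the page. Filled points passed an adjusted p of 0.05 (red higher, blue lower); all 15 Pcdhb genes lie left of 0 and 13 are filled, while Pcdh8 lies at 4.88, a fitted value against undetected arrays, and Pcdh17 at -3.52.

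Cochlea and vestibular system were compared within each cell type. In HC, 2 genes were higher and 11 lower in the cochlea, where 14.5% of all genes differed (6.29% higher and 8.17% lower). In ENHC 5 were higher and 2 lower (11.1% of all genes, 5.52% higher and 5.61% lower), and in NEC 6 were higher and 4 lower (6.26%, with 2.91% higher and 3.35% lower). With arrays scaled to a common median, the counts were 2 higher and 6 lower in HC, and 4 higher and 0 lower in NEC. Higher in cochlear HC were Pcdh7 and Cdh3, and lower were Pcdh20, Cdh11, Pcdh10, Pcdhb22, Cdh20, Pcdhgb4, Pcdhb13, Pcdhb17, Cdh15, Pcdhb20 and Pcdhgc5. Of the 11, Pcdhb22 fell by 1.2 ± 0.33 (adjusted p = 0.0175), and the values of Cdh20, Pcdhgb4, Pcdhb17, Cdh15, Pcdhb20 and Pcdhgc5 ran from -1.01 to -0.82. Pcdhb13 was undetected in cochlear HC, so vestibular HC held at least 1.26-fold more (adjusted p = 0.00797). Without cochlear HC replicate 2, the adjusted p was 0.11 for Pcdhb22, 0.0502 for Pcdhgb4, 0.205 for Cdh15 and 0.139 for Pcdhgc5. Without vestibular HC replicate 2, it was 0.085 for Pcdhb22, 0.0782 for Pcdhb17 and 0.199 for Cdh15. Vestibular HC replicate 1 decided Pcdhb22 (0.0665 without it) and Pcdhgc5 (0.0502), and cochlear and vestibular HC replicates 3 decided Pcdhgc5 (0.0728 and 0.088). In ENHC, Cdh4, Pcdh10, Pcdh9, Pcdh7 and Pcdh19 were higher and Pcdh20 and Cdh9 lower in the cochlea; Pcdh19 was undetected in both, no fold is given, and its adjusted p of 0.0232 was 0.0687 to 0.102 without any 1 of 4 arrays (cochlear ENHC replicates 2 and 3, vestibular ENHC replicates 1 and 2). In NEC, Cdh6, Cdh18, Pcdh19, Pcdhb3, Pcdhb9 and Pcdhb20 were higher and Cdh11, Pcdh9, Cdh5 and Pcdh12 lower in the cochlea. Pcdhb3 was higher by 1.06 ± 0.27 (adjusted p = 0.0207), with an adjusted p of 0.0580 to 0.095 without any NEC array but vestibular replicate 1. Cdh11 fell by 1.15 ± 0.27 (adjusted p = 0.0108), or 0.97 without vestibular NEC replicate 3 (adjusted p = 0.0681), and its other 2 probes gave -1.91 and -1.51 (adjusted p = 0.0532 and 0.0925). That array also decided Pcdhb9 (0.15) and Pcdhb20 (0.0909). Pcdhb9 (0.98 ± 0.27, adjusted p = 0.0362) further depended on every other NEC array except vestibular replicate 1 (0.0639 to 0.151), and Pcdhb20 (0.76 ± 0.19, adjusted p = 0.0222) on cochlear replicate 3 (0.124) and vestibular replicate 1 (0.106). With the replicate number as a block, Pcdh8 in ENHC (undetected in both organs, adjusted p = 0.0518 without the block and 0.0316 with it) and, in NEC, Cdh4, Pcdh10, Pcdhb11, Pcdhgb4 and Pcdhgc3 also passed (0.0111 to 0.0488).

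**Figure D4:**
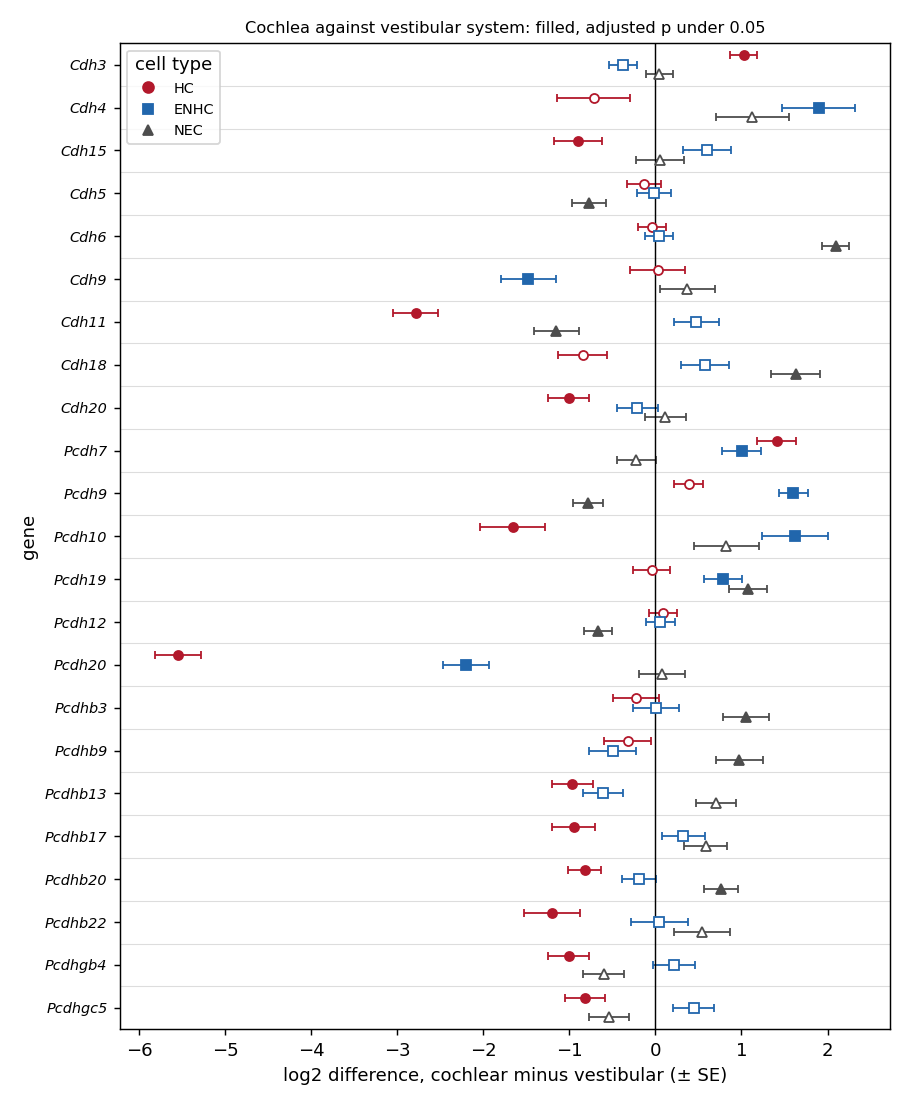
Log2 difference, cochlear minus vestibular (horizontal axis, ± SE, n = 3 arrays per side), in HC (circles), ENHC (squares) and NEC (triangles) for the 23 genes past the threshold in 1 or more cell types; filled symbols passed an adjusted p of 0.05. Pcdh20 lies at -5.55 in HC, a fitted value with cochlear HC undetected, and at -2.20 in ENHC.

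Catenins, plakophilins and other genes of cell junctions were read from a list of 26 genes, 25 of them measured. Not all of them are partners of classical cadherins. In HC against ENHC, 4 were higher and 7 lower, where 22.3% and 25.1% of all genes were. The largest differences were in Nectin1 (2.04 ± 0.28, adjusted p = 7.00e-06), a nectin that pairs with Nectin3 in cell contacts, and Ctnnd2 (1.23 ± 0.22, adjusted p = 0.000103), the neural delta-catenin, and among the lower genes in the plakophilin Pkp3 (-1.95 ± 0.18, adjusted p = 3.73e-08) and the receptor phosphatase Ptprf (-1.23 ± 0.19, adjusted p = 2.80e-05). In ENHC against NEC, 12 were higher and 3 lower (16.2% and 16.4% of all genes), led by Pkp3 (4.65 ± 0.18) and Pkp2 (2.50 ± 0.13), against Tjp1 (-1.51 ± 0.12) and Ptprm (-0.97 ± 0.26). In HC against NEC, 11 were higher and 6 lower (28.4% and 29.3% of all genes). Of 25 other cadherin superfamily genes annotated (desmosomal cadherins, calsyntenins, Fat, Dchs and Celsr genes), 14 were measured, and 3 were higher and 7 lower in HC than in ENHC, beside the same shares of all genes as above. Celsr3 (3.48 ± 0.14, adjusted p = 2.48e-13), of the family that includes the planar polarity gene Celsr1, and Cdhr1 (2.39 ± 0.30, adjusted p = 2.01e-06) led the higher genes, and Fat4 (-2.07 ± 0.20, adjusted p = 6.85e-08) and Fat1 (-1.98 ± 0.21, adjusted p = 2.99e-07) the lower ones. In ENHC against NEC 6 were higher, led by Celsr1 (2.80 ± 0.16) and the desmoglein Dsg2 (2.66 ± 0.15), and 2 were lower, Fat4 (-2.14 ± 0.20) and Dchs1 (-1.64 ± 0.15).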

How the data were processed

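RNA of sorted cells was amplified (NuGEN Ovation) and hybridised to Illumina mouse BeadChips. The authors deposited, for each of 18 arrays, the probe signal intensity without normalization and a detection p-value from the scanner software. The value table of the series held their quantile-normalized intensity. Here background was corrected with limma 3.58.1 in R 4.3.3 (normexp on the detection p-values, offset 16), arrays were quantile-normalized and log2 was taken. Probes detected at p under 0.01 on 2 or more arrays were kept (24352 of 45281). Of all probes 34885 had 1 gene symbol, 18 several and 10378 none, and the last 2 kinds were not used. The 12002 genes were fitted with a model of 6 group means (lmFit, eBayes), 2-sided, with Benjamini-Hochberg adjustment over all genes and a threshold of 0.05. The number of arrays, 3 per group, limits the precision, and the script was tested on simulated data.

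A lower bound on a fold sets the mean of the higher side against the mean, on the undetected side, of the larger of the array's lowest detected signal and the probe's own value. No SE was computed for a bound, and the adjusted p beside it belongs to the fitted difference. Values on every array are given for up to 4 genes with the largest differences in each direction and contrast, among those detected on all arrays of the higher side, and other genes were chosen after their values were seen. Members and lists were chosen with earlier results of these data known. Replicate numbers come from the labels. Same-numbered arrays deviated together from their group means (correlation 0.063 to 0.505 over 27 pairs, 25 over 0.1, with all over 0.1 for HC against ENHC and for ENHC against NEC within each organ, for HC against NEC in the cochlea, and between the organs in ENHC and NEC), and values with the number as a block (within organ for the cell types, across organs for the organ contrasts) are given where a call changed. The alternatives tried were no background correction, an offset of 50, median scaling, the series value table, stricter or no detection filter, the mean of the probes of a gene, no moderation, both blocks, each array left out, and, added after seeing the data, normalization over the kept probes alone.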

Additional observations from a re-analysis of the deposited data

Results flagged for a closer look

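The difference between HC and ENHC was itself different between the organs for 12 of the 48 genes (2 higher and 10 lower), where 10.9% of all genes passed that interaction test. The values, as the HC minus ENHC log2 difference in the cochlea minus that in the vestibular system, were Cdh11 (-3.26), Cdh15 (-1.5), Cdh18 (-1.43), Cdh3 (1.4), Cdh4 (-2.61), Cdh9 (1.5), Pcdh10 (-3.28), Pcdh20 (-3.35), Pcdh9 (-1.21), Pcdhb17 (-1.27), Pcdhgb4 (-1.22), Pcdhgc5 (-1.26). The values of Cdh15, Cdh18, Cdh3, Cdh9, Pcdh20 and Pcdh9 are fitted with 1 or more of the 4 groups undetected on every array. With other probes, over all kept probes, the value was -1.14 for Pcdh10 (adjusted p = 0.158), -2.07 and -1.90 for Cdh11 (0.125 and 0.106), 0.89 and 1.28 for Cdh3 (0.101 and 0.00139) and -1.10 and -0.19 for Pcdh9 (0.210 and 0.815). Of the 12, 6 passed under every alternative. Cdh18 was lost without any 1 of 4 arrays (adjusted p = 0.0517 to 0.0708: cochlear HC replicate 2, vestibular HC 1, cochlear ENHC 1 and vestibular ENHC 3), Cdh9 without any 1 of 9 (0.0523 to 0.0708: all but those of vestibular ENHC), Pcdhb17 without any 1 of 4 (0.0509 to 0.0663: cochlear HC 2, vestibular HC 2, cochlear ENHC 3 and vestibular ENHC 1) and Pcdhgb4 without any 1 of 6 (0.0555 to 0.0750: cochlear HC 2 and 3, vestibular HC 3, cochlear ENHC 1 and 3, and vestibular ENHC 2). Pcdh9 was lost with the mean of the probes of a gene (0.0643) and Pcdhgc5 with median scaling (0.0602). With the replicate number as a block within organ, Pcdh19 (adjusted p = 0.0266) and Pcdhb22 (adjusted p = 0.0413) also passed.

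The difference between ENHC and NEC was different between the organs for 9 of the 48 genes (3 higher and 6 lower), where 8.02% of all genes passed. The values, as the ENHC minus NEC log2 difference in the cochlea minus that in the vestibular system, were Cdh11 (1.63), Cdh6 (-2.05), Cdh9 (-1.85), Pcdh20 (-2.27), Pcdh7 (1.23), Pcdh9 (2.39), Pcdhb13 (-1.32), Pcdhb20 (-0.95), Pcdhb9 (-1.47). Those of Cdh6, Cdh9 and Pcdh20 are fitted with undetected groups. With other probes Cdh11 gave 2.26 and 1.94 (adjusted p = 0.110 and 0.122), Pcdh7 1.38, 1.48 and 1.16 (0.0994, 0.0358 and 0.200) and Pcdh9 1.92 and 0.90 (0.0196 and 0.0611). Of the 9, 4 passed under every alternative. Pcdhb20 was lost without any 1 of 10 arrays (adjusted p = 0.0530 to 0.112: all but cochlear ENHC replicate 3 and vestibular NEC replicate 2), Pcdhb9 without any 1 of 5 (0.0515 to 0.0586: cochlear ENHC 2 and 3, cochlear NEC 1, and vestibular NEC 2 and 3), Pcdh7 without any 1 of 3 (0.0568 to 0.0690: cochlear ENHC 3, vestibular ENHC 2 and cochlear NEC 3) and Pcdhb13 without vestibular NEC 3 (0.0532). With median scaling these 4 (0.0603 to 0.263) and Cdh11 (0.0501) were lost. With the same block, Cdh18 (adjusted p = 0.0456) and Pcdhgc5 (adjusted p = 0.0410) also passed. Groups of 3 arrays were too small to test for a single array far from the others.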

How the results depend on the processing

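Under the alternatives, no call changed direction. Reading a gene by each of its other probes was not among them. Of 14 genes with several kept probes, 1 (Pcdh7) had probes called in opposite directions. Of the calls over both organs, 29 of 33 in HC against ENHC, 20 of 23 in ENHC against NEC and 29 of 30 in HC against NEC passed under every alternative. Between the organs, 7 of 13 passed throughout in HC, 5 of 7 in ENHC and 3 of 10 in NEC. With arrays scaled to a common median, 8 genes passed between the organs in HC (13 with quantile normalization), 4 in NEC (10) and 4 in the organ difference of ENHC against NEC (9). That scaling moved the median of all genes by up to 0.16 on the log2 scale. Leaving out 1 array gave 9 to 14 genes between the organs in HC, 5 to 13 in NEC and 6 to 10 in the organ difference of ENHC against NEC. The lowest NEC count came without vestibular NEC replicate 3. The cause was not tested. Of the 27 same-number pairs, 25 correlated best with their own number. Between the organs in HC the same-number correlations were 0.42, 0.07 and 0.22, with replicate 2 below its highest other-number value (0.19). For HC with NEC in the vestibular system they were 0.28, 0.06 and 0.12, with replicate 3 below its highest other-number value (0.14). With the replicate number as a block 16 genes passed between the organs in HC, where Cdh18 (adjusted p = 0.0163), Pcdha6 (0.0223) and Pcdha7 (0.0267) were added. Over both organs 35 passed in HC against ENHC and 27 in ENHC against NEC with the block within organ, and the block changed no other count by over 1.5 times. Pcdhb3 in vestibular HC against NEC was lost with it (adjusted p = 0.0521). With the block within organ Pcdhb21 passed in HC against NEC over both organs (0.0438). With 1 block for a number across both organs Pcdhb11 passed in HC against NEC in the cochlea (0.0461).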
